A study of Mus musculus with 4 samples.

Results

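The genes described here are 6 of the 14718 gene symbols listed for the injured spinal cord of ApoE3 and ApoE4 mice: ALB, AHSG, TTR, APOA1, APOA2 and APOC3, which code for plasma apolipoproteins and other secreted liver proteins. They were chosen by name with their measured levels in view, which were higher in ApoE4 than in ApoE3 at 21 days post injury (dpi). Their levels in that comparison are therefore a description and support nothing. At 21 dpi 6 of the 6 genes had a row in the table of 11474 rows, and at 7 dpi 0 of the 6 had a row in the table of 14127 rows.

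The study asked how the human ApoE genotype alters the response to an incomplete contusion injury of the mid-thoracic spinal cord. RNA was sequenced from segments of about 4 mm that held the lesion. The 4 groups were male ApoE3 mice at 7 dpi, male ApoE4 mice at 7 dpi, male ApoE3 mice at 21 dpi and male ApoE4 mice at 21 dpi. By the study's methods each group had 3 mice, operated at 3 to 5 months of age, but each group has 1 value per gene here.

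In targeted replacement mice the mouse Apoe gene carries human ApoE3 or ApoE4 coding sequence, so every group made a human protein from an otherwise mouse genome. All groups received a 50 kdyne contusion under isoflurane, and uninjured or sham tissue was not analysed here. With 1 value per group there is no spread between mice, so no difference below was tested and none has a replicate check. In bulk tissue, fewer cells of a type and less RNA per cell cannot be told apart.

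Most plasma proteins are made by hepatocytes and secreted into blood. Apolipoproteins A-I and A-II form the protein core of high-density lipoprotein (HDL), which takes up cholesterol that the transporter ABCA1 exports from cells, while apolipoprotein C-III slows the breakdown of triglyceride-rich particles by lipoprotein lipase. In the central nervous system apolipoprotein E and clusterin are made locally by glia, and transthyretin is made by the choroid plexus, whereas albumin and fetuin-A are hallmarks of liver.

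Levels are FPKM, fragments scaled by transcript length and library size, which allows genes of different length to be compared. The log2 ratio is that of FPKM + 1 in ApoE3 over FPKM + 1 in ApoE4, so a negative value means a higher level in ApoE4, and it understates differences of low genes. A difference was called when it reached 2-fold on that scale. The table names its comparison ApoE3 versus ApoE4 and its first value was read as ApoE3. The numbers in its column names pair the values with the opposite genotypes, and under that reading every direction given here would turn round.

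The table held rows for genes with a passing test status, and at 21 dpi the higher group of every row was at 0.947 FPKM or above. A gene that is low in ApoE3 thus had a row only through its level in ApoE4. Counts and medians over listed genes are given as descriptions for that reason, and a gene without a row was not analysed here and cannot be read as 0. FPKM multiplied by annotated transcript length summed to between 3309602 and 4488408 in the groups, above the 1000000 that scaling per 1000000 fragments would give, so fragments per gene were not derived. Libraries were reduced to a common number of reads by the study's methods, but the number of fragments behind each value is unknown.

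The whole table was shifted at 21 dpi. The median log2 ratio of rows with a mean of at least 1 FPKM was -0.42, a level 1.34-fold higher in ApoE4, and 93.8% of rows were higher in ApoE4. At 7 dpi that median was 0.00180. Ratios at 21 dpi are therefore also given relative to the median, as centred log2 ratios.

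ALB codes for albumin, the main carrier and osmotic protein of plasma. Its level at 21 dpi was 0.0931 FPKM in ApoE3 and 5.36 FPKM in ApoE4, a log2 ratio of -2.54 and a centred ratio of -2.12. In ApoE3 it was near the bottom of the table, with 0.418% of rows lower, and in ApoE4 12.9% of rows were lower. ALB ranked 32 of 11474 rows by ratio toward ApoE4.

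AHSG codes for fetuin-A, a protease inhibitor of the cystatin family that binds calcium phosphate in plasma. It stood at 0.182 FPKM in ApoE3 and 15.8 FPKM in ApoE4. Its log2 ratio of -3.83, centred -3.40, was the most negative of the 6 genes and ranked 6 in the table. In ApoE4 30.6% of rows were lower than AHSG.

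TTR codes for transthyretin, the carrier of thyroxine and of retinol-binding protein. Its level was 0.173 FPKM in ApoE3 and 5.40 FPKM in ApoE4, close to that of ALB in ApoE4. The log2 ratio was -2.45, centred -2.02, and its rank was 37.

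APOA2, which codes for apolipoprotein A-II, had the highest level of the 6 genes in both groups. It was at 5.38 FPKM in ApoE3, where 17.5% of rows were lower, and at 59.2 FPKM in ApoE4, where 61.2% of rows were lower. The log2 ratio was -3.24, centred -2.82, rank 13. APOA2 alone among the 6 was above the median row in ApoE4, which stood at 36.8 FPKM.

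APOC3, which codes for apolipoprotein C-III, was second in level in both groups, at 3.03 FPKM in ApoE3 and 29.2 FPKM in ApoE4. Its log2 ratio was -2.90, centred -2.48, rank 19. APOA1, which codes for apolipoprotein A-I, was at 1.61 FPKM in ApoE3 and 7.40 FPKM in ApoE4. APOA1 had the smallest difference of the 6, with a log2 ratio of -1.68, centred -1.26, and rank 86.

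**Figure D1:**
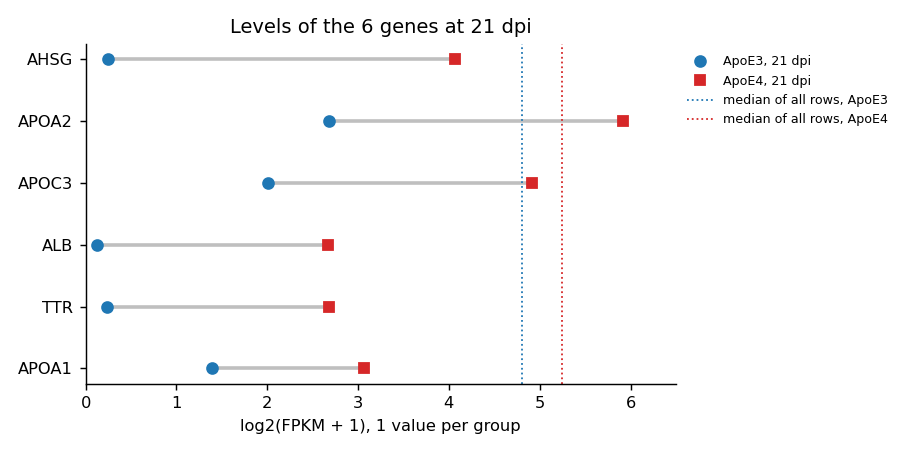
Levels of the 6 genes at 21 dpi as log2(FPKM + 1), with 1 circle for ApoE3 and 1 square for ApoE4 per gene and dotted lines at the median of all rows in each group. Every square is right of its circle, and only the ApoE4 value of APOA2 (59.2 FPKM) lies above the ApoE4 median of 36.8 FPKM.

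The order of levels differed between the groups. In ApoE3 it ran from APOA2 through APOC3, APOA1, AHSG and TTR to ALB, so the 3 apolipoproteins were above 1 FPKM and the other members below it. In ApoE4 the order was APOA2, APOC3, AHSG, APOA1, TTR and ALB. Summed over the 6 genes, the level was 10.5 FPKM in ApoE3 and 122 FPKM in ApoE4. No error can be set on neighbours in these orders, and TTR and ALB differed little in level in ApoE4.

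In all, 6 of the 6 genes passed 2-fold toward ApoE4, with ratios of FPKM + 1 from 3.21-fold for APOA1 to 14.2-fold for AHSG. Over the whole table at 21 dpi, 433 of 11474 rows (3.77%) passed 2-fold toward ApoE4 and 86 (0.75%) toward ApoE3. After centring the split was 127 rows (1.11%) toward ApoE4 and 158 toward ApoE3, and 6 of the 6 genes still passed. The rows that, like the 6 genes, were listed at 21 dpi and not at 7 dpi numbered 593, of which 114 (19.2%) passed 2-fold toward ApoE4, against 319 of 10881 (2.93%) of the rows listed at both times. Since the 6 genes were selected on this contrast, nothing is read from their count.

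**Figure D2:**
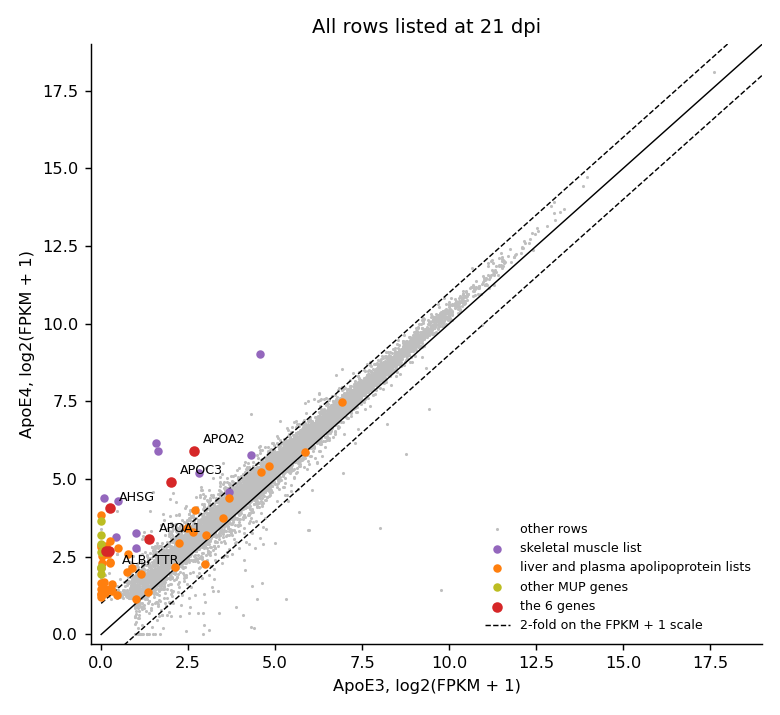
Level of every row at 21 dpi as log2(FPKM + 1), ApoE3 on the horizontal and ApoE4 on the vertical axis, with the line of equal levels and dashed lines at 2-fold. The 6 genes lie above the upper dashed line with many liver and skeletal muscle genes, and most rows lie slightly above the line of equal levels (median log2 ratio -0.42).

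Promoters of the members are shown because these genes were high in the same group. The RefSeq promoter table matched 4 of the 6 genes, ALB, AHSG, APOA1 and APOA2, and not APOC3 and TTR. Each sequence is the 150 bases before the RefSeq start, on the plus strand of GRCm38.p6: ALB at chr5:90460720-90460869, AHSG at chr16:22891865-22892014, APOA1 at chr9:46228480-46228629 and APOA2 at chr1:171224904-171225053. APOA2 has 2 windows in the table and the one at the annotated gene start is shown. Capitals mark matches, on either strand, to short motifs of liver transcription factors.
ALB: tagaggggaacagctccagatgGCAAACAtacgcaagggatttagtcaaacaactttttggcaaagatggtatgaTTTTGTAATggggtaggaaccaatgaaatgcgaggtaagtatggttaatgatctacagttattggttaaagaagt
AHSG: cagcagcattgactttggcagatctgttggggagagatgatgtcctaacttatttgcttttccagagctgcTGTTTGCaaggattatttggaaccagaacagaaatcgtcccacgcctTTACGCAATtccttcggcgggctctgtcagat
APOA1: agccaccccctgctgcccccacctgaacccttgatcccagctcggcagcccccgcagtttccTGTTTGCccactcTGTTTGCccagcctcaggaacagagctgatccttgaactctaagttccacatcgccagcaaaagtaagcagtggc
APOA2: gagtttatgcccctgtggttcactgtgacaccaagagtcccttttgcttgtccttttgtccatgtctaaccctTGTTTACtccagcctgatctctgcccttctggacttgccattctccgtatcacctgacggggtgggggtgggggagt

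The motifs searched were TGTTTNC for forkhead factors of the FOXA family, TTNNGNAAT for C/EBP, AGGTCA for nuclear receptors and TATAAA for the TATA box. The FOXA letters occurred in 4 of the 4 promoters, at -128 to -122 in ALB, at -79 to -73 in AHSG, at -77 to -71 in APOA2, and in APOA1 at -88 to -82 and at -75 to -69, counted back from the start. They occur in 10.3% of the 32851 promoter windows of the same length. The C/EBP letters were found in ALB (-75 to -67) and AHSG (-32 to -24) and in 5.71% of all windows. The nuclear receptor and TATA letters were in 0 of the 4 and in 8.58% and 7.57% of all windows. Matches did not overlap, and they are a description of the letters in these windows.

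The plasma apolipoprotein list held 14 genes, of which 6 were listed at 21 dpi. Beside APOA1, APOA2 and APOC3 these were APOC1, APOC4 and APOH, and the median log2 ratio of the 6 listed genes was -1.47, centred -1.05. Without the 3 members it was that of APOC4, -0.96, centred -0.53. APOH, beta-2-glycoprotein I, passed 2-fold toward ApoE4, at 0.835 FPKM in ApoE3 and 3.40 FPKM in ApoE4, but its centred ratio of -0.84 did not. The 8 others, among them APOB, APOA4 and APOA5, had no row.

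APOC1, APOC2 and APOC4 lie beside Apoe in the genome. Of these APOC2 had a row at 7 dpi only, with a log2 ratio of 3.32 toward ApoE3. APOC1, the most abundant gene of the list, was at 120 FPKM in ApoE3 and 176 FPKM in ApoE4 at 21 dpi, a centred ratio of -0.13, and APOC4 was at 4.58 and 9.83 FPKM, centred -0.53. APOE itself, named after its values were seen, was at 843 FPKM in ApoE3 and 1311 FPKM in ApoE4, centred -0.21. Its coding sequence was human and reads were aligned to the mouse genome, so these values may not cover the whole transcript.

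At 7 dpi the same list had 3 listed genes. APOC1 was at 89.9 FPKM in ApoE3 and 102 FPKM in ApoE4, and APOC4 at 5.11 and 4.39 FPKM. APOC2, the activator of lipoprotein lipase, was at 43.0 FPKM in ApoE3 and 3.40 FPKM in ApoE4, a log2 ratio of 3.32 toward ApoE3, and it had no row at 21 dpi. Among all rows at 7 dpi, 36 (0.255%) passed 2-fold toward ApoE4 and 48 (0.34%) toward ApoE3.

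HDL is loaded and remodelled by transporters and plasma enzymes. Of 10 such genes 4 were listed at 21 dpi and 0 passed 2-fold, beside 3.77% of all rows toward ApoE4, with a median log2 ratio of -0.75, centred -0.33. ABCA1 was at 37.5 FPKM in ApoE3 and 63.1 FPKM in ApoE4, and ABCG1, which exports cholesterol to mature HDL, was at 18.6 and 25.3 FPKM. The paraoxonases PON2 (52.7 and 90.4 FPKM) and PON3 (24.3 and 44.8 FPKM) had centred ratios of -0.34 and -0.43.

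The 7 dpi table listed 7 of the 10, with 0 past 2-fold, where 0.255% of all rows passed it toward ApoE4 and 0.34% toward ApoE3. ABCA1 was then at 302 FPKM in ApoE3 and 340 FPKM in ApoE4. LCAT, which esterifies HDL cholesterol, was at 35.0 and 38.4 FPKM, PLTP at 157 and 156 FPKM, and the HDL receptor SCARB1 at 133 and 142 FPKM. The last 3 genes had no row at 21 dpi.

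Genes of triglyceride-rich particles were listed for 6 of 10 at 21 dpi, with 0 past 2-fold, beside 3.77% of all rows toward ApoE4 and 0.75% toward ApoE3. Their median log2 ratio was -0.47, centred -0.04. LPL, the lipase that apolipoprotein C-III inhibits, was at 11.8 FPKM in ApoE3 and 23.1 FPKM in ApoE4, and MTTP, which loads lipid onto apolipoprotein B, was at 20.7 and 28.3 FPKM. ANGPTL4 (2.86 and 4.08 FPKM) was higher in ApoE4, but above the median of all rows after centring, at 0.03. LRP1 was at 180 and 255 FPKM and SAR1B at 12.8 and 18.9 FPKM.

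For 7 dpi the count was 7 of 10 listed and 0 past 2-fold, beside the same 0.255% and 0.34% of all rows. LPL was at 71.1 FPKM in ApoE3 and 90.7 FPKM in ApoE4, and ANGPTL4, an inhibitor of LPL, at 14.4 and 20.7 FPKM. MTTP was at 20.9 and 21.5 FPKM.

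Apolipoproteins made within nervous tissue, and proteins named after them, were listed for 5 of 6 genes at both times, with 0 past 2-fold. Of all rows at 21 dpi 3.77% passed toward ApoE4 and 0.75% toward ApoE3, and at 7 dpi 0.255% and 0.34%. CLU, clusterin, was at 2440 FPKM in ApoE3 and 3975 FPKM in ApoE4 at 21 dpi, centred -0.28, and at 2211 and 2167 FPKM at 7 dpi. The median log2 ratio of the 5 genes at 21 dpi was -0.58, centred -0.16. APOL9B was higher in ApoE4 at 21 dpi (4.80 and 6.73 FPKM) but level with the median of all rows after centring, at 0.01.

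Liver genes outside the members were examined with 6 lists that together held 125 genes, of which ALB, AHSG and TTR are 3. At 21 dpi 42 of the 125 were listed, and 19 at 7 dpi. Of the 39 listed at 21 dpi that are not members, 37 were higher in ApoE4 and 25 passed 2-fold toward it. Of all rows 93.8% were higher in ApoE4 and 3.77% passed 2-fold toward it, or 19.2% of the rows listed at 21 dpi only, so the count of higher genes is near that of the table. Their median log2 ratio was -1.31. After centring 16 of the 39 passed toward ApoE4 and 1 toward ApoE3, 32 lay below the median of all rows and 7 above it, and the median was -0.89.

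Plasma carrier proteins form the list that holds ALB and TTR, whose values enter its counts. Of 19 genes 11 were listed at 21 dpi, with 10 past 2-fold toward ApoE4 (8 after centring) and a median log2 ratio of -2.38, centred -1.96. The share of all rows past 2-fold toward ApoE4 was 3.77% (1.11% after centring), and that of rows listed at 21 dpi only was 19.2%. Summed over the 11 genes the level was 13.1 FPKM in ApoE3 and 72.8 FPKM in ApoE4. RBP4, which travels in plasma bound to transthyretin and is also made outside the liver, was the most abundant, at 11.9 FPKM in ApoE3 and 20.1 FPKM in ApoE4. RBP4 was listed at 7 dpi too, at 2.61 and 2.95 FPKM.

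The major urinary proteins are small lipocalins that mouse liver secretes. All 10 MUP genes with a row at 21 dpi were listed at 0 in ApoE3 and between 2.87 and 13.2 FPKM in ApoE4, and 0 had a row at 7 dpi. The highest were MUP3 (13.2 FPKM), MUP7 (11.6 FPKM) and MUP22 (8.23 FPKM). These genes are close copies of one another, so how reads were shared among them is uncertain. For scale, 41 rows of the table were listed at 0 in ApoE3 and 18 in ApoE4.

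Plasma protease inhibitors and their relatives, the list of AHSG, had 13 of 22 genes listed at 21 dpi. Of these 10 passed 2-fold toward ApoE4 (8 after centring), beside 3.77% of all rows (1.11% after centring). Among rows listed at 21 dpi only the share was 19.2%. The median log2 ratio of the list was -2.04, centred -1.62. SERPINA1A, an alpha-1 antitrypsin gene, was at 0.195 FPKM in ApoE3 and 7.00 FPKM in ApoE4, and its close copy SERPINA1D at 0.0243 and 4.74 FPKM. Reads of these copies could not be told apart with certainty. SERPINA3M, which belongs to another multigene family, was the most abundant of the list, at 22.9 and 36.6 FPKM, centred -0.23.

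Hepatocyte enzymes were listed for 12 of 40 genes at 21 dpi, with a median log2 ratio of -1.26, centred -0.84. Past 2-fold toward ApoE4 were 7 (2 after centring, and 3 among genes with a mean of at least 1 FPKM). Beside them, 3.77% of all rows passed (1.11% after centring), and 19.2% of the rows listed at 21 dpi only. CYP2E1, a cytochrome P450 of drug metabolism, was at 0.720 FPKM in ApoE3 and 4.95 FPKM in ApoE4. CES1C and CYP3A11 were listed at 0 in ApoE3 and at 2.14 and 1.49 FPKM in ApoE4. GNMT, a methyltransferase of methionine metabolism, was at 5.51 and 15.1 FPKM, while ASS1 of the urea cycle was at 7.13 and 8.19 FPKM and lay above the median of all rows after centring, at 0.25.

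Other liver lists had few rows. HAMP, the iron hormone hepcidin, was at 0.0924 FPKM in ApoE3 and 6.20 FPKM in ApoE4. SAA1, an acute phase apolipoprotein that rides on HDL, was higher in ApoE3, at 6.88 FPKM against 3.76 FPKM, and its centred ratio of 1.15 passed 2-fold. With C8G (5.20 and 8.87 FPKM) and CFHR2 (0.369 and 1.40 FPKM) these were the 4 of 15 complement and acute phase genes listed at 21 dpi. Of 17 coagulation factors 1 was listed, VTN, vitronectin, at 57.5 FPKM in ApoE3 and 57.1 FPKM in ApoE4. The centred ratio of VTN was 0.43. Fibrinogen and prothrombin genes had no row.

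Of 12 hepatocyte transcription factors 1 was listed at 21 dpi, PROX1, at 27.2 FPKM in ApoE3 and 41.4 FPKM in ApoE4, centred -0.16. PROX1 is also a gene of neural and lymphatic cells. HNF4A and the FOXA genes had no row at either time. CEBPA, which myeloid cells and adipocytes express too, was listed at 7 dpi at 185 FPKM in ApoE3 and 281 FPKM in ApoE4.

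**Figure D3:**
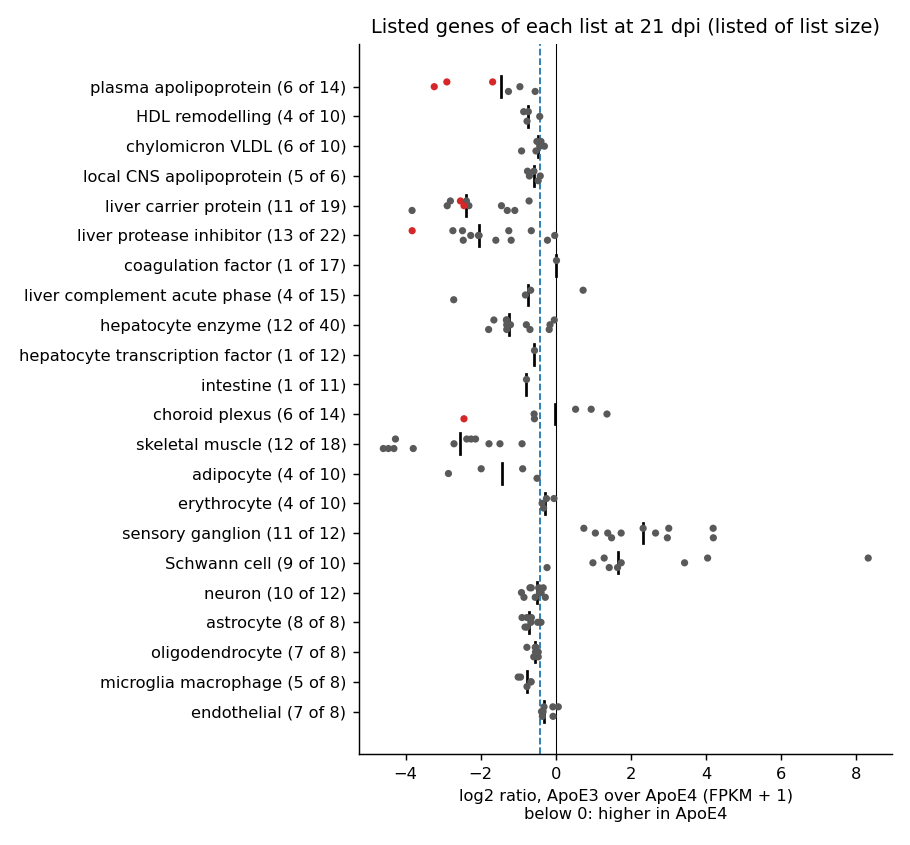
Log2 ratio at 21 dpi of each listed gene of 22 gene lists, with the number listed of each list's size, the list median as a black bar, the members in red and the median of all rows as a dashed line. The carrier, protease inhibitor and skeletal muscle lists lie mostly below -1, and the sensory ganglion and Schwann cell lists lie mostly above 1.

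Liver genes were also split by whether they were listed at 7 dpi. The 13 genes listed at both times had a median log2 ratio of -0.65 at 21 dpi, centred -0.23, with 3 past 2-fold toward ApoE4 (1 after centring). The 29 listed at 21 dpi only had a median of -1.79, centred -1.37, with 25 past 2-fold (18 after centring). They include ALB, AHSG and TTR, and the 26 others had a median of -1.62, centred -1.20, with 22 past 2-fold (15 after centring). The whole table showed a split in the same direction, with 2.93% of rows listed at both times and 19.2% of those listed at 21 dpi only past 2-fold toward ApoE4. In ApoE3 26 of these 29 were under 1 FPKM and 8 were listed at 0. A gene at that level in ApoE3 needed the ApoE4 level to have a row, so the ratios of the second set are not independent of how it was listed, and the difference between the sets was not tested.

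At 7 dpi the 13 genes had a median log2 ratio of -0.03, with 8 higher in ApoE4, 5 higher in ApoE3 and 1 past 2-fold toward ApoE4. HP, the hemoglobin scavenger haptoglobin, was at 4.11 FPKM in ApoE3 and 5.25 FPKM in ApoE4 at 7 dpi, and at 0.386 and 5.90 FPKM at 21 dpi. The ApoE4 levels of HP were thus close at both times, and the ApoE3 level was the lower one at 21 dpi. The gene of the 13 past 2-fold at 7 dpi was SERPINA3M, at 2.37 FPKM in ApoE3 and 50.7 FPKM in ApoE4. Of the 19 liver genes listed at 7 dpi 2 passed 2-fold toward ApoE4, beside 0.255% of all rows. The other was ARG1, at 16.5 FPKM in ApoE3 and 39.0 FPKM in ApoE4, which had no row at 21 dpi. A place on a liver list does not tell which cells in the segment made the RNA. Levels of both times come from the same table, but how it was scaled between times is not given in the sources used here.

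**Figure D4:**
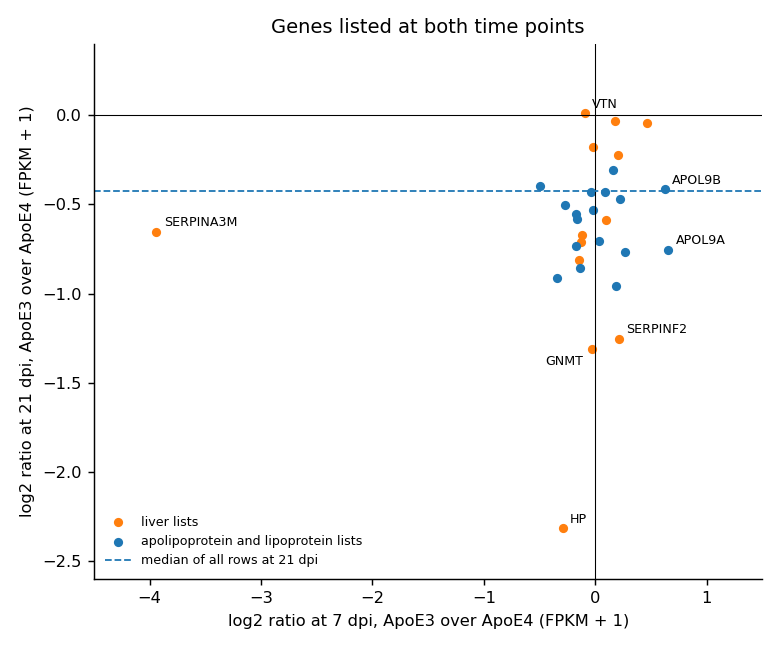
Log2 ratio at 7 dpi (horizontal) and 21 dpi (vertical) of the 30 genes of the liver, apolipoprotein and lipoprotein lists that were listed at both times, 1 point per gene. Most points lie near 0 at 7 dpi and near the median of all rows (-0.42) at 21 dpi, with HP, GNMT and SERPINF2 below -1 at 21 dpi and SERPINA3M at -3.94 at 7 dpi.

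TTR is also a leading gene of the choroid plexus. Of the 14 genes of that list 6 were listed at 21 dpi, 3 higher in ApoE4 and 3 higher in ApoE3. In each direction 1 passed 2-fold, beside 3.77% of all rows toward ApoE4 and 0.75% toward ApoE3. After centring 1 passed toward ApoE4 and 2, SOSTDC1 and AQP1, toward ApoE3. Pseudocounts of 0.1 and 0.01 also gave 2 toward ApoE3. TTR was the gene past 2-fold toward ApoE4. SOSTDC1 (3.92 FPKM in ApoE3 and 0.914 FPKM in ApoE4) and AQP1 (2.32 and 0.728 FPKM) were higher in ApoE3. ENPP2, the most abundant, which oligodendrocytes also express, was at 1569 and 2344 FPKM, and FOLR1 at 17.6 and 26.5 FPKM, centred -0.16 and -0.15. IGF2 was at 126 and 87.4 FPKM. KCNJ13, CLIC6 and OTX2 had no row. The median of the list was -0.02, and 0.40 after centring. Of 11 intestine genes 1 was listed, ANPEP, at 5.80 and 10.7 FPKM, centred -0.36. APOA1 and APOC3 are made in the intestine as well.

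Markers of spinal cord cells were present in both groups at 21 dpi. Of the neuron list 10 of 12 genes were listed with a centred median of -0.08, of the astrocyte list 8 of 8 with -0.29, and of the oligodendrocyte list 7 of 8 with -0.12. The microglia and macrophage list had 5 of 8 with -0.34. Below the median of all rows were 7 of the 10 neuron genes, 7 of the 8 astrocyte genes, 7 of the 7 oligodendrocyte genes and 5 of the 5 microglia and macrophage genes. Of these lists 1 gene passed 2-fold toward ApoE4, beside 3.77% of all rows (1.11% after centring). That gene was LYZ2 of the last list, and it did not pass after centring. The endothelial list, 7 of 8, and the erythrocyte list, 4 of 10, were higher in ApoE4 by median (-0.31 and -0.29) and above the median of all rows after centring (0.11 and 0.14). Summed erythrocyte levels were 1063 FPKM in ApoE3 and 1335 FPKM in ApoE4. Past 2-fold were 0 of the 4 listed genes, beside 3.77% of all rows toward ApoE4 and 0.75% toward ApoE3.

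Skeletal muscle and adipocyte markers are given here beside the members, as tissues outside the cord. At 21 dpi 3.77% of all rows passed 2-fold toward ApoE4, and 1.11% after centring. Skeletal muscle had 12 of 18 genes listed and 11 past 2-fold toward ApoE4, also after centring, with a median of -2.54, centred -2.12. Its summed level was 65.9 FPKM in ApoE3 and 822 FPKM in ApoE4, led by TNNT3 at 22.5 and 515 FPKM, and MYH1, MYH2 and CKM had no row. Adipocyte genes had 4 of 10 listed and 2 past 2-fold toward ApoE4, with a summed level of 7.48 and 25.8 FPKM. FABP4 was the most abundant by mean over both groups, at 3.29 and 6.92 FPKM, and CAR3 was the highest in ApoE4, at 1.29 and 8.09 FPKM. CFD was listed at 0 in ApoE3 and at 6.27 FPKM in ApoE4, and ADIPOQ had no row.

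Toward ApoE3, 0.75% of all rows at 21 dpi passed 2-fold, and 158 of 11474 rows after centring. Sensory ganglion genes had 11 of 12 listed and 10 past 2-fold toward ApoE3 (11 after centring). Their summed level was 170 FPKM in ApoE3 and 30.9 FPKM in ApoE4. By mean over both groups POU4F1 was the most abundant, at 32.1 and 18.8 FPKM. It was the listed gene that did not pass 2-fold before centring, and its centred ratio of 1.17 passed. AVIL, the highest in ApoE3, was at 39.1 and 1.20 FPKM and SCN10A at 20.1 and 0.153 FPKM, and 2 genes of the list were listed at 0 in ApoE4. Schwann cell genes had 9 of 10 listed and 7 past 2-fold toward ApoE3 (8 after centring). Their summed level was 3370 and 1234 FPKM, led by PMP22 at 1970 and 992 FPKM. At 7 dpi 11 genes of the muscle list, 3 of the adipocyte, 3 of the sensory ganglion and 6 of the Schwann cell list had rows and 0 passed 2-fold, beside 0.255% and 0.34% of all rows at that time. The part of these tissues in the levels of the 6 genes was not tested.

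The 20 rows with the largest ratio toward ApoE4 at 21 dpi held AHSG, APOA2 and APOC3, 5 genes of the muscle list, 2 of the liver lists and 3 further MUP genes. The muscle genes were MYL1, TNNT3, TNNC2, ACTA1 and ATP2A1. CYP2A5, a liver cytochrome P450 outside the lists, was among them, listed at 0 in ApoE3 and at 8.64 FPKM in ApoE4. Within the first 100 rows were the 6 members, 15 other genes of the liver and plasma apolipoprotein lists, 7 further MUP genes and 10 genes of the muscle list. The other 62 rows were not sorted by tissue, and the lists do not hold every gene of a tissue.

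The 10 genes nearest to the members in their pair of levels at 21 dpi were found by Euclidean distance from the median pair of the 6, 0.81 in ApoE3 and 3.57 in ApoE4 as log2(FPKM + 1). They were TNNI2, OLR1, ACTC1, IGFN1, CAR3, TCAP, SNORA73A, FGL1, MYL7 and ACP7. Of these 2, TNNI2 and TCAP, were on the muscle list, CAR3 was on the adipocyte list and 0 were on a liver list. The lists do not hold every gene of a tissue, and ACTC1, IGFN1 and MYL7 were on none of them. TNNI2 was nearest, at 1.01 FPKM in ApoE3 and 8.60 FPKM in ApoE4, with a distance of 0.36. FGL1, a fibrinogen-like protein that liver secretes, was at 1.71 and 8.96 FPKM. Likeness over 2 values says little, since any gene with these levels qualifies.

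Genes next to the members in the genome lay near the whole table. Of 30 protein-coding neighbours, 3 on each side of each member and counted once, 11 were listed at 21 dpi and 0 passed 2-fold, beside 3.77% of all rows toward ApoE4. Their log2 ratios ran from -0.73 to -0.14 with a median of -0.51, beside -0.42 for all rows. Since the members were selected on their ratio, nothing is read from the gap between them and their neighbours. APOA1 and APOC3 are neighbours of each other, and beyond them SIK3 was at 78.8 FPKM in ApoE3 and 108 FPKM in ApoE4 and ZPR1 at 31.8 and 35.2 FPKM, while APOA4 and APOA5 had no row. APOA2 lies between TOMM40L (72.9 and 104 FPKM) and FCER1G (91.1 and 152 FPKM). DNAJB11, beside AHSG, was at 52.7 and 81.9 FPKM, and FETUB and HRG, liver genes on its other side, had no row. B4GALT6, beside TTR, was at 25.9 and 41.7 FPKM. The relatives of ALB next to it, AFP and AFM, had no row.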

How the data were processed

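RNA from lesion segments was sequenced in 4 groups. Per the submitters' notes and the study's methods, reads were reduced to 1 common number per library, aligned to the mouse genome and quantified with STAR 2.5.4b, Bowtie2 2.1.10, SAMtools 0.1.7 and Cuffdiff 1.3.0. The methods name Bowtie2 in another version, and the genome build is not given in the sources used here. A single library aligned at a lower rate by the methods, and its group is not given there.

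The authors deposited FPKM plus 1, with 1 value per gene, genotype and time point. The same table holds the authors' p-values, q-values and fold changes, which were not used, and a second deposited table of their selected genes was not used. After removal of the added 1, ratios of FPKM + 1 were put on the log2 scale in Python 3.11.15 (numpy 2.4.6, pandas 2.3.3, matplotlib 3.10.9). No filter was applied and no test was run, and a difference of at least 2-fold was called. Counting error is not given because fragments per gene are unknown. Scripts were tested on simulated data. Symbols found on more than 1 row (2 at each time) were counted by row.

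The members and the 22 gene lists were chosen with earlier results of these data known. Named were the 6 members, every listed gene of the 4 apolipoprotein and lipoprotein lists, the 3 highest and the 3 most different genes of each other list, 3 RefSeq neighbours on each side (GRCm38.p6), the 10 genes with the nearest pair of levels, and the 20 largest ratios toward ApoE4. Some genes that this rule names are not reported here. Alternatives were pseudocounts of 0.1 and 0.01, centring, a mean of at least 1 FPKM, folds of 1.3 and 4, and liver lists without the members. The opposite genotype reading and genes listed at both times were added after seeing the data. Transcript lengths came from GENCODE and promoters from RefSeq.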

Additional observations from a re-analysis of the deposited data

Results flagged for a closer look

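SERPINF2, which codes for alpha-2-antiplasmin and was singled out after its values were seen, lay on opposite sides at the 2 time points. At 7 dpi it was at 2.43 FPKM in ApoE3 and 1.97 FPKM in ApoE4, a log2 ratio of 0.21, and at 21 dpi at 0.680 and 3.01 FPKM, a log2 ratio of -1.25. After centring the ratio at 21 dpi was -0.83, with the same sign but no longer past 2-fold. Without centring it was the 1 gene of 30 liver, apolipoprotein and lipoprotein genes listed at both times that passed 2-fold at 1 time with the opposite sign at the other. With 1 value per group the difference between times was not tested.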

How the results depend on the processing

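No paired analysis was possible because each group has 1 value per gene. Values with no spread were taken as kept when they moved by less than 1.5-fold. Of the 6 genes, selected on these values, 6 passed 2-fold after centring, 6 passed 1.3-fold and 5 passed 4-fold. A pseudocount or the minimum of 1 FPKM cannot turn the sign of a gene's ratio. With a pseudocount of 0.1 or 0.01 the log2 ratio was -4.82 or -5.70 for ALB, -5.81 or -6.36 for AHSG and -4.33 or -4.88 for TTR, all under 1 FPKM in ApoE3, where the pseudocount by construction sets the ratio. The same 2 pseudocounts gave medians at 21 dpi of -4.33 or -5.03 for carrier proteins, -3.79 or -5.09 for protease inhibitors, -2.03 or -2.11 for hepatocyte enzymes, -3.40 or -3.98 for all liver genes and -3.14 or -3.90 for liver genes without the members. At 0.01 the median was -2.10 for plasma apolipoproteins and -1.33 for complement and acute phase genes. For skeletal muscle genes the median was -4.33 at 0.1 and -4.49 at 0.01.

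Over the table at 21 dpi the rows past 2-fold toward ApoE4 numbered 673 and 701 with pseudocounts of 0.1 and 0.01, and at 7 dpi 74 and 84, against 89 and 97 toward ApoE3. At 21 dpi 6754 rows passed 1.3-fold toward ApoE4 and 232 toward ApoE3, and 62 and 23 passed 4-fold. At 7 dpi 672 and 534 rows passed 1.3-fold, and 2 and 3 passed 4-fold. Centring left 127 rows toward ApoE4 and 158 toward ApoE3 at 21 dpi, and of the liver genes without the members 16 and 1, with SAA1 the 1 gene toward ApoE3.

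At 1.3-fold 4 of 4 listed HDL genes, 5 of 6 of triglyceride-rich particles and 5 of 5 of the nervous tissue list passed toward ApoE4 at 21 dpi. The median of all rows was itself 1.34-fold higher in ApoE4, past this fold, so nothing is read from these counts. Toward ApoE3 1 liver gene passed. The counts over all rows at each fold are given above. At 7 dpi 1 gene of triglyceride-rich particles and 5 liver genes passed 1.3-fold toward ApoE4, and 2 of the nervous tissue list and 2 liver genes toward ApoE3. At 4-fold toward ApoE4, 2 plasma apolipoproteins, 15 liver genes and 12 without the members passed at 21 dpi and 1 liver gene at 7 dpi. The hepatocyte enzymes past 2-fold toward ApoE4 at 21 dpi fell from 7 to 2 with centring and to 3 with a mean of at least 1 FPKM, and 0 passed 4-fold.

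Liver genes listed at both times, an alternative chosen after seeing the data, had 3 past 2-fold toward ApoE4 and a median of -0.65 at 21 dpi, and 1 past it at 7 dpi. The opposite genotype reading, also chosen after seeing the data, by construction turned the ratios to 2.54 (ALB), 3.83 (AHSG), 2.45 (TTR), 1.68 (APOA1), 3.24 (APOA2) and 2.90 (APOC3), the liver median to 1.31, the members past 2-fold to 0 toward ApoE4 and 6 toward ApoE3, and the liver genes to 0 and 28 at 21 dpi and 0 and 2 at 7 dpi. For single lists, 462 of 512 further values stayed within 1.5-fold, and 33 of the 50 others were counts at another fold. Where no reason is given, the cause was not tested. Depth per gene is unknown, so levels under 1 FPKM, such as those of ALB, AHSG and TTR in ApoE3, carry an unknown counting error.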
